A study of Rattus norvegicus with 16 samples.

Results

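The genes examined here encode the nuclear-made parts of oxidative phosphorylation, measured in the hypothalamus of rats that were restrained, smelled linalool, had both, or had neither. They were picked out by gene name, and the set was chosen with earlier results of these data known. Every probe set with a single gene symbol that begins with Nduf, Cox4 to Cox8, Uqcr or Atp5, or that is Sdha, Sdhb, Sdhc or Sdhd, was taken. This gave 96 of 31042 probe sets, for 86 genes. Of these, 87 probe sets, for 80 genes, were bright enough to be tested, among 18625 tested in all. Complex I had 44 probe sets (43 tested), complex II 5 (5), complex III 8 (8), complex IV 19 (14) and complex V 20 (17). The 9 dim probe sets were those of Cox8b, Cox6a2, Cox4i2, Cox6b2, Cox7b2 and Ndufaf1, and additional probe sets of Atp5if1 (1371230_x_at), Atp5me (1377191_at) and Atp5po (1397920_at). A further 7 probe sets that carry several symbols were not taken. RefSeq lists near-identical '-like' copies of Atp5mg, Atp5mk, Atp5pd, Cox5b, Cox7c, Ndufb11, Ndufb3, Ndufb4 and Uqcr11, so the values of these 9 genes may include their copies. Several of the dim genes are isoforms best known from other organs, such as Cox6a2 and Cox8b of heart and skeletal muscle and Cox6b2 of testis.

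Oxidative phosphorylation is the process by which mitochondria turn nutrients into ATP. Complexes I and II feed electrons from NADH and succinate to ubiquinone, complex III passes them to cytochrome c, and complex IV hands them to oxygen. Complexes I, III and IV pump protons as they do so, and complex V, the ATP synthase, uses the returning protons to make ATP. Neurons depend heavily on this supply. Complexes I, III, IV and V also contain subunits made from the mitochondrial genome, which the name rule leaves out. The rule also takes in some genes that are not subunits. The Ndufaf genes encode assembly factors of complex I, Atp5if1 encodes an inhibitor of the ATP synthase, Cox7a2l encodes a factor that joins complexes III and IV, and Cox6c-ps1 is a pseudogene. Ndufa4 and its relative Ndufa4l2 were counted with complex IV, where the Ndufa4 protein resides despite its name.

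Hypothalami came from 16 male Wistar rats aged 7 to 8 weeks, with 1 Affymetrix array per rat and 4 rats in each group. The groups were rats that inhaled (R)-(-)-linalool, a floral-smelling monoterpene alcohol, during 2 h of restraint, rats restrained for 2 h without odour, rats that inhaled linalool for 2 h without restraint, and controls exposed to neither. Together they form a 2 × 2 layout that asks how restraint and the odour each alter transcript levels, and whether the change with restraint differs when the odour is present. Levels below are log2(signal + 16) after quantile normalization, given as mean ± SD of 4 rats. Changes are differences on that log2 scale with limma's standard error (SE), and a probe set is called when limma's Benjamini-Hochberg adjusted p, taken over all 18625 probe sets, is under 0.05. Probe sets differ in how strongly they bind, so no level is compared between probe sets.

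The overall level of the deposited signals differed from array to array. The median signal of an array was 110.3 to 117.7 in restrained rats with linalool, 87.2 to 127.4 in restrained rats, 70.3 to 94.2 in linalool rats and 67.0 to 116.0 in controls. The BioC spike-in, a bacterial transcript added at hybridization, read 884 to 1014 on 3 arrays (linalool rats 2 and 4, and restrained rat 2 with linalool), against 201 to 246 in controls. Of 10 markers of hypothalamic neurons, 8 had a tested probe set (Agrp and Sim1 did not). Their mean level per rat was 10.07 to 10.47 in restrained rats with linalool, 9.92 to 10.39 in restrained rats, 10.03 to 10.48 in linalool rats and 10.02 to 10.29 in controls. In that order of groups, the 3 tested pituitary markers averaged 8.87 ± 0.68, 9.82 ± 0.27, 9.03 ± 0.26 and 8.94 ± 1.73. Control rat 3 read 6.35 for them, and the other controls 9.59 to 9.94. It also had the highest mean of 4 thalamus markers, 9.53, with the other controls at 8.08 to 8.74. Group means of the 2 tested striatum markers lay between 8.102 and 8.137. The part of dissection in the members' values was not tested. The tissue is a mixture of cell types, so fewer cells of a type and less RNA per cell cannot be told apart in any result below.

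These transcripts differed little between the groups, and by similar small amounts. The largest difference between any 2 groups compared was 0.37 on the log2 scale, and 0 of 87 probe sets differed by more than 0.5. Each rat was summarised by the median deviation of the 87 probe sets from their own means over the 16 arrays. It was -0.04, -0.03, 0.004 and 0.03 in restrained rats 1 to 4 with linalool, -0.09, -0.06, -0.10 and -0.01 in restrained rats, 0.11, 0.11, 0.06 and 0.03 in linalool rats, and -0.001, -0.04, 0.06 and -0.04 in controls. After quantile normalization linalool rats were the highest group and restrained rats the lowest. Linalool rats overlapped controls through control rat 3 alone, whose pituitary and thalamus readings are given above, and did not overlap either restrained group. The margin was small, with linalool rat 4 at 0.033 and restrained rat 4 with linalool at 0.030. In the number of probe sets above their own mean, restrained rats with linalool had 30, 29, 46 and 56 of 87, restrained rats 7, 28, 11 and 41, linalool rats 81, 78, 60 and 60, and controls 43, 38, 59 and 26. As deposited the order of the groups was not the same. The median level of the members per rat was then 11.32 to 11.37 in restrained rats with linalool and 10.94 to 11.27 in linalool rats. It was 11.07 to 11.48 in restrained rats and 10.65 to 11.43 in controls.

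**Figure D1:**
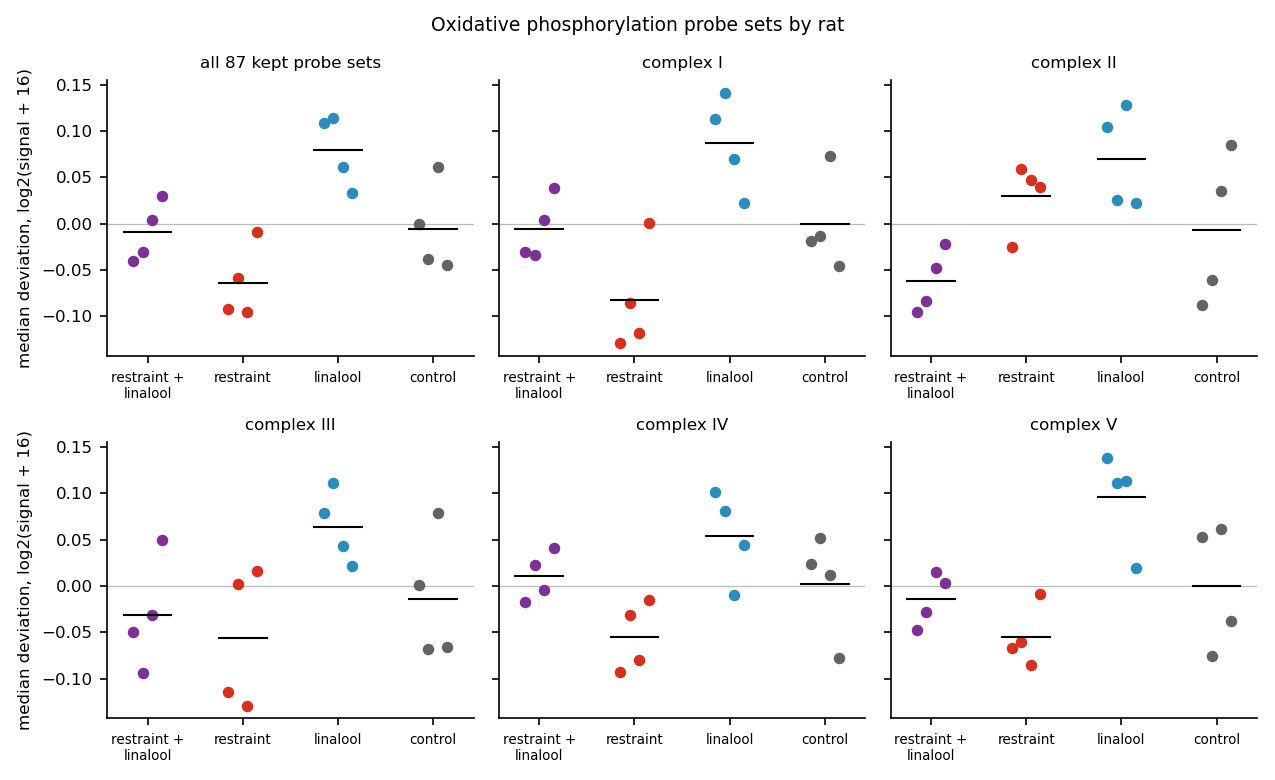
Median deviation of the tested probe sets from their own means over 16 arrays, in log2(signal + 16), for each rat (points), for all 87 probe sets and for each complex. The bars are group means. All 4 linalool rats lie above 0 over the 87 probe sets, from 0.03 to 0.11, and all 4 restrained rats lie below 0, from -0.10 to -0.01, after quantile normalization.

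Restraint without odour was set against controls to ask what restraint alone does. Of the 87 probe sets, 0 were called, against 0.902% of all tested probe sets. At an unadjusted p under 0.05, 5 were lower and 0 higher, which is 5.75% of the members against 12.6% of all probe sets. The median change was -0.05 (all probe sets 0.003), with 65 changes negative and 22 positive, against 9191 negative and 9434 positive of all 18625. It was -0.08 with arrays scaled to the same median. With the signals as deposited the sign turned to 0.04, while the median of all probe sets was 0.10, so that relative to it the members lay at -0.06 as deposited and -0.05 after quantile normalization. The changes ran from -0.33 for Ndufv3 to 0.18 for Cox6b1.

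Restraint in the presence of linalool was set against linalool alone, on 8 other arrays. Here 0 of 87 were called, against 1.69% of all probe sets, and 12 were lower and 0 higher at an unadjusted p under 0.05, 13.8% against 16.2%. The median change was -0.09 (all probe sets -0.02), with 79 changes negative, 8 positive and 76 below the median of all probe sets. It was -0.19 with arrays scaled to the same median. As deposited it was 0.21, where all probe sets had a median of 0.32. Relative to all probe sets the members lay at -0.07 after quantile normalization, -0.13 with arrays scaled to the same median and -0.11 as deposited. In complex V, 17 of 17 changes were negative after quantile normalization, the median turned to 0.19 as deposited, and 16 or 17 of 17 were below the median of all probe sets under the 3 scalings.

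Averaged over both odour conditions, restraint lowered 1 of the 87 probe sets, that of Ndufv2, and raised 0. This is 1.15% of the members, against 4.21% of all probe sets called. At an unadjusted p under 0.05, 15 were lower and 0 higher, against 18.9% of all probe sets in either direction. The median change was -0.07, with 77 negative, 10 positive and 74 below the median of all probe sets. It was -0.13 with arrays scaled to the same median and 0.13 as deposited, where all probe sets had medians of -0.03 and 0.21. Relative to all probe sets it was -0.06 after quantile normalization, -0.09 with arrays scaled to the same median and -0.08 as deposited. Of 7 tested microglia markers, 2 were called lower in this effect, P2ry12 (-0.998) and Cx3cr1 (-0.49). The other 5 were not called and had values of -0.19 for Aif1, -0.09 for Itgam, 0.14 for C1qa, 0.15 for Tmem119 and 0.22 for Csf1r. The mean level of the 7 was 8.01 to 8.36 in restrained rats with linalool, 7.97 to 8.31 in restrained rats, 8.20 to 8.48 in linalool rats and 8.23 to 8.43 in controls. Opalin, an oligodendrocyte marker (-0.76), and Slco1a4, an endothelial marker (-0.34), were also called lower, and the astrocyte marker Gjb6 was called higher (0.29). They are named because they were called, from lists of 6, 5 and 7 tested markers. In restrained rats with linalool, restrained rats, linalool rats and controls, the 5 endothelial markers averaged 8.457, 8.59, 8.463 and 8.65. In that order the 6 oligodendrocyte markers averaged 11.56, 11.71, 11.70 and 11.92, and the 7 astrocyte markers 11.04, 11.02, 10.86 and 10.99. The part of these cell types in the members' values was not tested.

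Linalool without restraint was set against controls to ask what the odour alone does. Of the 87 probe sets 0 were called, and the share of all probe sets was also 0%. At an unadjusted p under 0.05, 10 were higher and 0 lower, 11.5% against 9.83% of all probe sets. The median change was 0.08 (all probe sets 0.005), with 74 positive and 13 negative. It was 0.12 with arrays scaled to the same median. As deposited it turned to -0.05, where all probe sets had a median of -0.17, and relative to all probe sets the members lay at 0.08 after quantile normalization and 0.12 as deposited. Positive changes made up 85.1% of the members and 51.4% of all probe sets.

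Linalool during restraint, set against restraint alone, gave 0 of 87 called, against 0.65% of all probe sets. At an unadjusted p under 0.05, 5 were higher and 2 lower, against 12.6% of all probe sets in either direction. The median change was 0.05 (all probe sets -0.02), with 63 positive, 24 negative and 68 above the median of all probe sets. It was 0.13 as deposited and 0.02 with arrays scaled to the same median. Averaged over both restraint conditions, 0 were called, against 0.714% of all probe sets, and 18 were higher and 0 lower at an unadjusted p under 0.05, 20.7% against 14.8%. The median of this average effect was 0.07, with 69 positive, 18 negative and 72 above the median of all probe sets. It was 0.04 as deposited, and after quantile normalization 0.08 relative to all probe sets.

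Whether the change with restraint differed by odour was tested as the interaction. It was called for 0 of 87, against 0% of all probe sets, and 2 were negative (Sdhc and Ndufaf5) at an unadjusted p under 0.05, against 7.99%. The median interaction was -0.02, as for all probe sets (-0.02). It was -0.10 with arrays scaled to the same median, where all probe sets had -0.04, and 0.18 as deposited, where all probe sets had 0.22. Relative to all probe sets it was -0.001, -0.06 and -0.05 under the 3 scalings. The pairs of changes that share no arrays can be set side by side. The change with restraint was negative both without and with odour for 60 of the 87 probe sets and positive in both for 3 (r = 0.23 across probe sets, against 0.37 over all 18625). Over all 18625 it was negative in both for 5842 and positive in both for 5078. The change with linalool was positive both without and with restraint for 57 of the 87 and negative in both for 7 (r = 0.35, against 0.18). Over all 18625 it was positive in both for 4891 and negative in both for 5684. These correlations run across transcripts measured on the same arrays, which are not independent replicates.

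**Figure D2:**
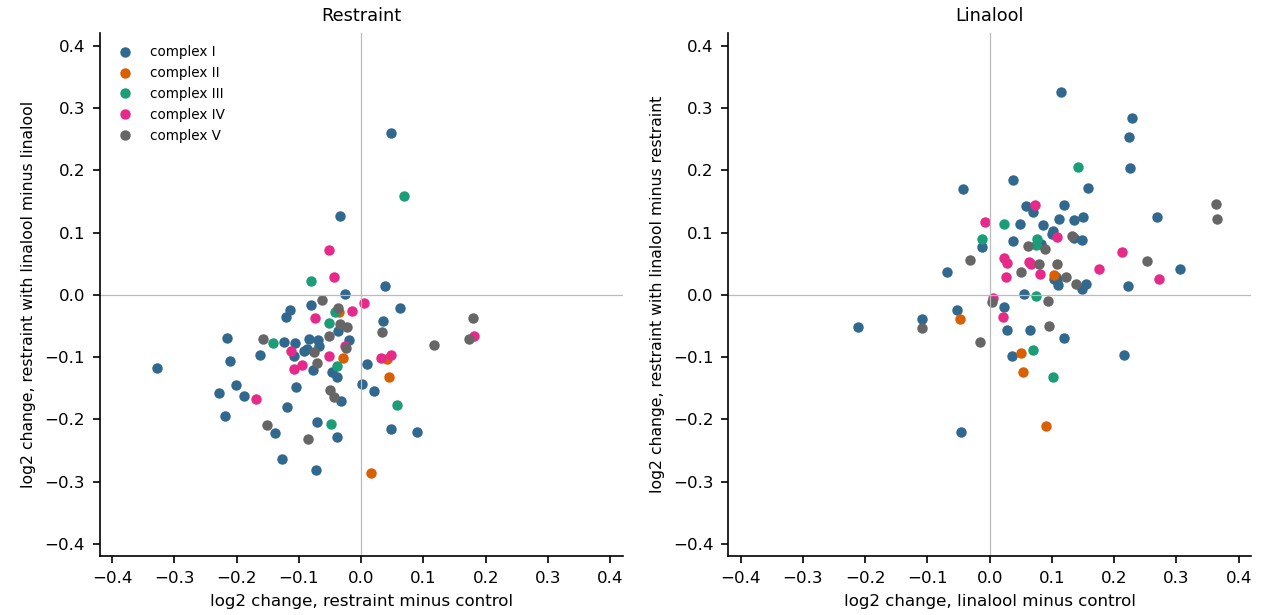
Log2 change of each tested probe set with restraint (left: without odour on the x axis, with odour on the y axis) and with linalool (right: without restraint on x, with restraint on y), after quantile normalization, coloured by complex. On the left 60 of 87 points fall at lower left, negative in both (5842 of all 18625 probe sets). On the right 57 of 87 fall at upper right, positive in both (4891 of all 18625). With signals as deposited the median of each of these 4 changes except that of linalool without restraint is positive.

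Measures outside the members were also compared in the linalool rats. Of the marker means in this paragraph, only that of astrocytes did not overlap between linalool rats and controls. The mean level of 7 astrocyte markers (Gfap, Aqp4, Aldh1l1, Slc1a2, Slc1a3, Gjb6 and S100b) was 10.97 to 11.11 in restrained rats with linalool, 10.98 to 11.12 in restrained rats, 10.81 to 10.91 in linalool rats and 10.94 to 11.02 in controls. All 7 were negative in linalool minus control, 0 of 7 were called there, and in restraint with linalool minus linalool all 7 were positive and 1, Gjb6, was called. The shares of all probe sets called in these 2 comparisons were 0% and 1.69%. Of 6 oligodendrocyte markers, 5 were negative in linalool minus control (the lowest Opalin, -0.66) and 0 were called, and their mean level was 11.38 to 11.76 in restrained rats with linalool, 11.50 to 11.84 in restrained rats, 11.50 to 11.85 in linalool rats and 11.73 to 12.07 in controls. Of 5 endothelial markers, 4 were negative in linalool minus control (median -0.25) and 0 were called, and their mean level was 8.29 to 8.64 in restrained rats with linalool, 8.43 to 8.89 in restrained rats, 8.426 to 8.496 in linalool rats and 8.43 to 8.92 in controls. The mean of 8 neuron markers overlapped between all groups, at 10.77 to 10.94 in restrained rats with linalool, 10.85 to 11.02 in restrained rats, 10.74 to 11.02 in linalool rats and 10.70 to 11.13 in controls. The 3'/5' signal ratio of Gapdh, a measure of RNA integrity, averaged 1.15 ± 0.005 in restrained rats with linalool, 1.196 ± 0.05 in restrained rats, 1.11 ± 0.04 in linalool rats and 1.21 ± 0.12 in controls. Control rat 1 had the highest ratios of all, 1.39 for Gapdh and 4.93 for beta-actin, where the other 15 arrays lay at 2.08 to 3.50 for beta-actin. In a fit adjusted for the beta-actin ratio, the median change was 0.09 in linalool minus control and -0.10 in restraint with linalool minus linalool. The linalool arrays also had low deposited medians, and 2 of the 4 had the high BioC reading. On the 13 arrays with low BioC the median change was 0.09 in linalool minus control and -0.10 in restraint with linalool minus linalool. The part of glial and endothelial content in the members' pattern was not tested.

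**Figure D3:**
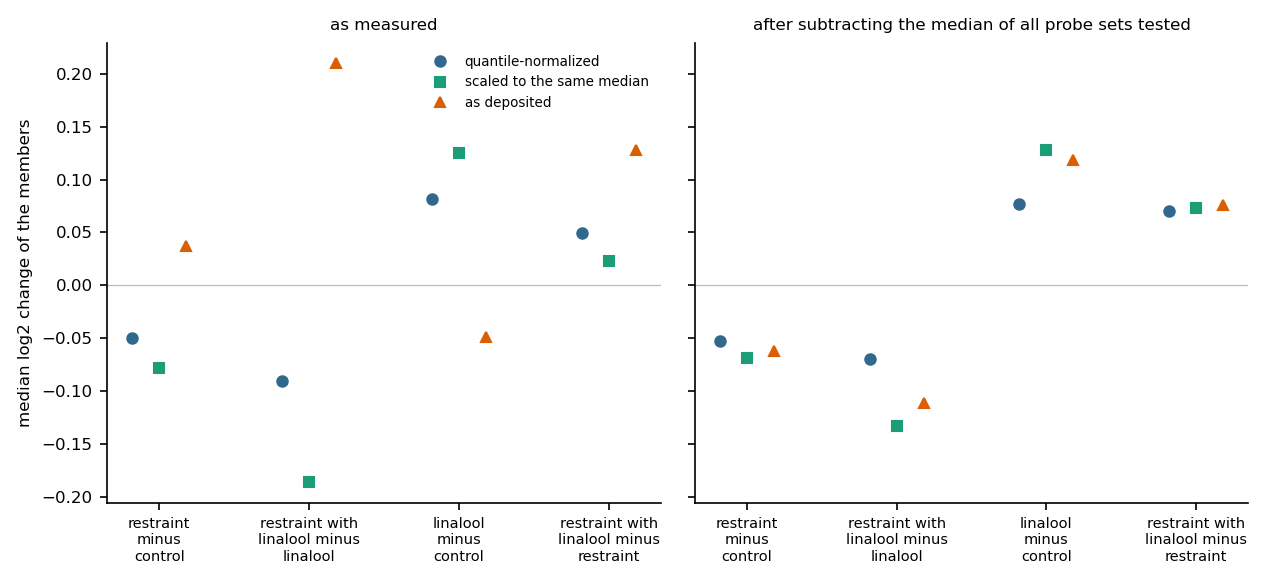
Median log2 change of the tested probe sets in the 4 comparisons between groups, as measured (left) and after subtracting the median of all tested probe sets (right), for quantile-normalized signals, arrays scaled to the same median, and signals as deposited. On the left the deposited signals give the opposite sign in 3 of the 4 comparisons, and on the right each comparison has the same sign under all 3 scalings. Scaling to the same median multiplies each array by a constant, which largely cancels on the right. There it is no separate check from the signals as deposited.

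Complex I, the NADH dehydrogenase, contributed 43 of the 87 tested probe sets. Its median change was -0.08 for restraint minus control, -0.11 for restraint with linalool minus linalool and 0.10 for linalool minus control, which as deposited turned to 0.02, 0.21 and -0.06. For restraint with linalool minus restraint it was 0.08, and 0.15 as deposited. Relative to the median of all probe sets the 4 changes were -0.08, -0.09, 0.10 and 0.10, and -0.08, -0.11, 0.11 and 0.10 as deposited. The 6 core subunits that carry out electron transfer, Ndufs1, Ndufs3, Ndufs7, Ndufs8, Ndufv1 and Ndufv2, had a median average restraint effect of -0.17. All 6 were negative after quantile normalization, but Ndufs1 overlapped between all groups. It read 10.56 to 10.69 in restrained rats with linalool and 10.58 to 10.74 in restrained rats. Linalool rats read 10.58 to 10.65 and controls 10.60 to 10.81. For complex I as a whole, not the 6 alone, the median average restraint effect was 0.12 as deposited, below the 0.21 of all probe sets. The 31 accessory subunits had a median of -0.09, with 28 negative. The 6 probe sets of assembly factors had a median of -0.07.

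Ndufv2 encodes a core subunit of the NADH-oxidising arm that holds an iron-sulfur cluster. It was the called member. Its level (1371041_at) was 11.20, 11.32, 11.23 and 11.27 in restrained rats 1 to 4 with linalool, 11.15, 11.03, 11.12 and 11.13 in restrained rats, 11.48, 11.36, 11.47 and 11.49 in linalool rats, and 11.31, 11.40, 11.45 and 11.15 in controls. With odour the restrained rats all lay below the unrestrained ones. Without odour the groups overlapped only because control rat 4 lay just below restrained rat 1. The means were 11.25 ± 0.06 in restrained rats with linalool, 11.11 ± 0.05 in restrained rats, 11.45 ± 0.06 in linalool rats and 11.33 ± 0.13 in controls. Averaged over odour, Ndufv2 fell by 0.21 with restraint (SE 0.05, limma adjusted p = 0.0366). The separate changes were -0.22 without odour (adjusted p = 0.22) and -0.19 with it (adjusted p = 0.213). In fits that left out 1 rat, the call held without control rat 1, control rat 4 or linalool rat 2, and was lost on leaving out any other rat (adjusted p 0.0509 to 0.0801), at changes of -0.24 to -0.19. With signals as deposited the change was -0.004 (adjusted p = 0.981), where the median of all probe sets was 0.21.

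Ndufv3, an accessory subunit of the same arm, had the largest negative change with restraint alone. Its brighter probe set (1368566_a_at) read 9.49, 9.55, 9.70 and 9.82 in restrained rats with linalool, 9.25, 9.23, 9.27 and 9.51 in restrained rats, 9.76, 9.85, 9.77 and 9.64 in linalool rats, and 9.48, 9.79, 9.88 and 9.43 in controls. Restrained rats without odour were the lowest group, with rat 4 inside the range of controls and of restrained rats with linalool. The change was -0.33 (SE 0.11, limma adjusted p = 0.214) for restraint minus control and 0.33 (SE 0.11, adjusted p = 0.208) for restraint with linalool minus restraint, neither called. Its dimmer probe set (1368567_at) had changes of -0.13 and 0.02 in the same comparisons.

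Ndufs8 and Ndufs3, core subunits of the peripheral arm, differed in pattern. Ndufs8 averaged 10.09 ± 0.06 in restrained rats with linalool, 9.81 ± 0.20 in restrained rats, 10.24 ± 0.10 in linalool rats and 10.01 ± 0.17 in controls. Each restrained rat with linalool was above each restrained rat without it, with the nearest pair almost touching. Its average linalool effect was 0.26 (SE 0.07, limma adjusted p = 0.122). Ndufs3 averaged 10.32 ± 0.10 in restrained rats with linalool, 10.31 ± 0.07 in restrained rats, 10.60 ± 0.12 in linalool rats and 10.38 ± 0.15 in controls. Linalool rats stood above all other rats, the lowest of them only just above the highest control, and restraint with linalool minus linalool was -0.28 (SE 0.09, adjusted p = 0.125). As deposited that change of Ndufs3 was 0.06, below the median of all probe sets there (0.32).

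Ndufb10, an accessory subunit of the membrane arm, had the smallest adjusted p for the average linalool effect and is named for that, after its values were seen. It read 10.87, 11.01, 10.88 and 11.02 in restrained rats with linalool, 10.76, 10.70, 10.64 and 10.86 in restrained rats, 11.03, 11.01, 11.03 and 10.95 in linalool rats, and 10.69, 10.80, 10.87 and 10.76 in controls. All 8 rats with linalool lay above all 8 without it, with the nearest pair almost touching. The average linalool effect was 0.21 (SE 0.05, limma adjusted p = 0.0651) and was not called, and the effects were 0.22 without restraint and 0.20 with it. Ndufb8, another membrane-arm subunit, had an average linalool effect of 0.24 (SE 0.08, adjusted p = 0.174) in the same direction.

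Further complex I members stood at the ends of the range without being called. Ndufa5, an accessory subunit of the peripheral arm, had a change of 0.31 for linalool minus control (SE 0.10, limma adjusted p = 0.358). Ndufa7 (1375411_at) had -0.23 for restraint minus control (adjusted p = 0.476), with an SD of 0.05 in restrained rats and 0.29 in controls. The dim probe set of Ndufa9 (1396282_at) had -0.22 for restraint with linalool minus restraint (adjusted p = 0.391), while its brighter probe set had 0.01. Among assembly factors, Ndufaf4 had 0.26 for restraint with linalool minus linalool (adjusted p = 0.371), opposite in sign to most members, and Ndufaf5 an interaction of -0.31 (SE 0.12, adjusted p = 0.569). The tightest member of the complex was Ndufc2, with a residual SD of 0.05 over the arrays, and the most variable Ndufs4, with 0.25. Restrained rat 4 read 9.13 for Ndufs4, and the other restrained rats 8.21 to 8.40.

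**Figure D4:**
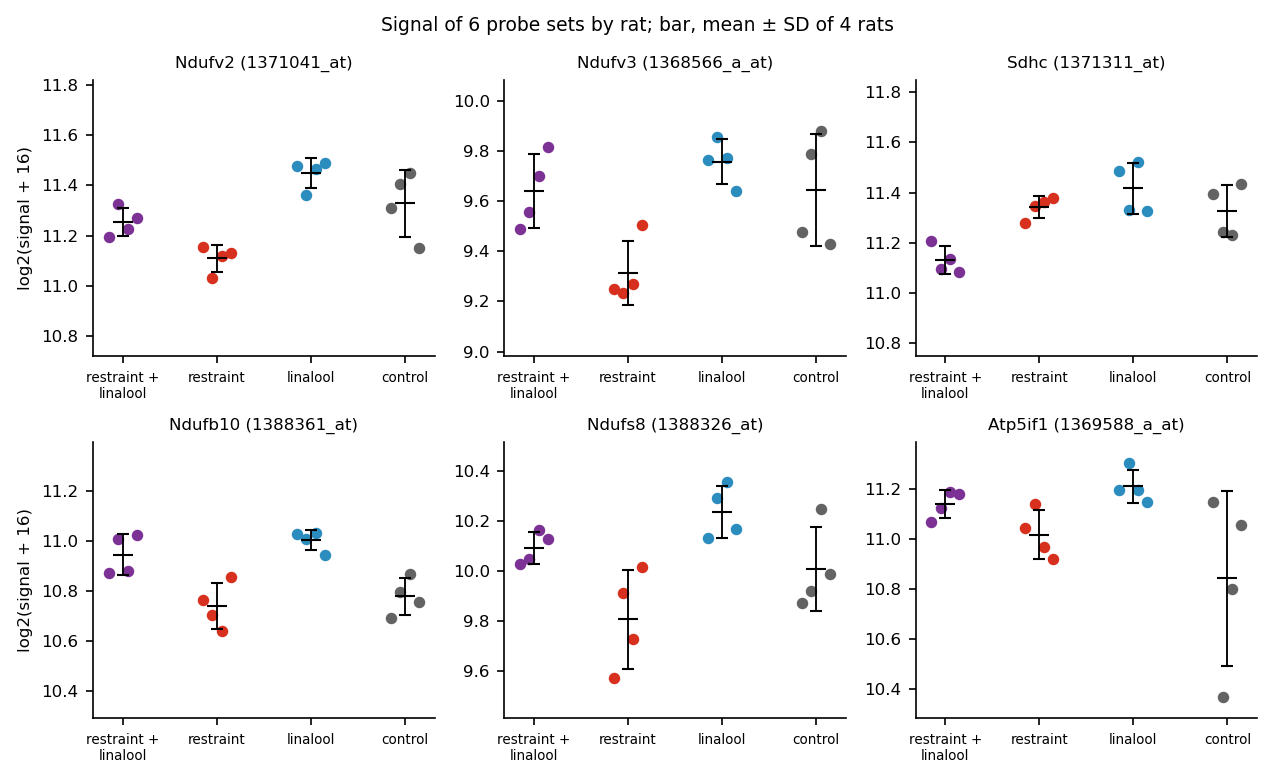
Level of 6 probe sets in log2(signal + 16) after quantile normalization, by rat (points), with the mean ± SD of 4 rats. Ndufv2 is lower in restrained rats with linalool than in any linalool rat, Sdhc is lowest in restrained rats with linalool, and control rat 2 is the low point of Atp5if1.

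Complex II, succinate dehydrogenase, links the citric acid cycle to the chain and is built from nuclear genes alone. The median change of its 5 probe sets was 0.02 for restraint minus control, and -0.003 with arrays scaled to the same median. It was -0.10 for restraint with linalool minus linalool and 0.05 for linalool minus control, which as deposited turned to 0.21 and -0.11. For restraint with linalool minus restraint it was -0.09, with -0.14 for arrays scaled to the same median and -0.04 as deposited, while those of complexes I, III, IV and V were positive under all 3 scalings. Whether complex II differs from the others in this was not tested. None of the 5 was called in any comparison. Per rat, the median deviation was -0.10, -0.08, -0.05 and -0.02 in restrained rats with linalool, and -0.03, 0.06, 0.05 and 0.04 in restrained rats.

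Sdhc, which encodes a membrane anchor of complex II, carried the largest of these differences. It read 11.21, 11.10, 11.14 and 11.08 in restrained rats with linalool, 11.28, 11.35, 11.36 and 11.38 in restrained rats, 11.49, 11.33, 11.52 and 11.33 in linalool rats, and 11.39, 11.24, 11.23 and 11.43 in controls. All 4 restrained rats with linalool lay below the other 12 rats. The change was -0.29 against linalool alone (SE 0.07, limma adjusted p = 0.066) and -0.21 against restraint alone (SE 0.07, adjusted p = 0.227), with an interaction of -0.30 (SE 0.11, adjusted p = 0.511), none called. As deposited the change against linalool alone was 0.03, where the median of all probe sets was 0.32.

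The other complex II genes differed less. The brighter probe set of Sdhd (1388294_at), the second membrane anchor, averaged 10.85 ± 0.03 in restrained rats with linalool, 10.98 ± 0.05 in restrained rats, 10.99 ± 0.04 in linalool rats and 10.93 ± 0.06 in controls. It was lower in each restrained rat with linalool than in each rat of the restraint or linalool groups, by -0.13 against linalool (limma adjusted p = 0.305). Its dimmer probe set (1371296_at) had -0.10 in that comparison. Sdha, the flavoprotein that oxidises succinate, had changes between -0.05 and -0.03 in all 4 comparisons. Sdhb, the iron-sulfur subunit, had 0.10 for linalool minus control (adjusted p = 0.609) and -0.10 for restraint with linalool minus linalool (adjusted p = 0.465).

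Complex III, which moves electrons from ubiquinol to cytochrome c, had 8 tested probe sets with 0 called in any comparison. Its medians were -0.04 for restraint minus control, -0.06 for restraint with linalool minus linalool, 0.07 for linalool minus control and 0.09 for restraint with linalool minus restraint, and as deposited the first 3 of these turned sign. Uqcrh, the acidic hinge protein, was its tightest member, with a residual SD of 0.07. Uqcrc2, a core protein of the complex, had 2 tested probe sets of unequal quality. The brighter one (1373362_at) averaged 11.53 ± 0.17 in restrained rats with linalool, 11.66 ± 0.23 in restrained rats, 11.70 ± 0.08 in linalool rats and 11.60 ± 0.11 in controls. The dimmer one (1382280_at) had the widest spread of all 87, a residual SD of 0.45, with controls between 8.83 and 10.49. The 2 probe sets had opposite signs for restraint with linalool minus linalool, -0.18 and 0.16, and neither was called.

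Complex IV, cytochrome c oxidase, had 14 tested probe sets, with medians of -0.05, -0.09, 0.07 and 0.05 in the 4 comparisons in the same order. As deposited the first 3 turned to 0.04, 0.20 and -0.03, and relative to all probe sets they were -0.06, -0.12 and 0.14. For the average linalool effect, 14 of 14 lay above the median of all probe sets under each of the 3 scalings, with 0 called. Cox6b1, a subunit facing the intermembrane space, had changes of 0.18 for restraint minus control (limma adjusted p = 0.434) and 0.27 for linalool minus control (SE 0.09, adjusted p = 0.358). Linalool rats read 11.98 to 12.20, control rat 2 was the lowest of all at 11.54, and the other 3 controls read 11.81 to 11.98. Cox8a was the tightest member (residual SD 0.06) and the pseudogene Cox6c-ps1 the most variable (0.27). The isoform-specific probe sets of Cox4i2, Cox6a2, Cox6b2, Cox7b2 and Cox8b were too dim to test.

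Complex V, the ATP synthase, had 17 tested probe sets, with medians of -0.04, -0.07, 0.09 and 0.05 in the same order and 0 called. As deposited the first 3 turned to 0.05, 0.19 and -0.02, and relative to all probe sets they were -0.05, -0.13 and 0.14. Atp5if1, whose protein blocks the reverse, ATP-consuming action of the enzyme, had the largest positive change of all members, 0.37 for linalool minus control (1369588_a_at, SE 0.13, limma adjusted p = 0.368). Linalool rats read 11.15 to 11.30 and controls 11.15, 10.37, 10.80 and 11.06, with control rats 2 and 3 the lowest of all 16. For restraint minus control it had 0.17 (adjusted p = 0.615). A second, dimmer Atp5if1 probe set (1371229_at) had 0.18 for restraint minus control and 0.36 for linalool minus control, with an SD of 0.19 in linalool rats and 0.37 in controls. Atp5f1c, the central shaft subunit, had the most negative average linalool effect of the complex, -0.08 (adjusted p = 0.507). Atp5pd, of the peripheral stalk, was its tightest member, with a residual SD of 0.05.

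**Figure D5:**
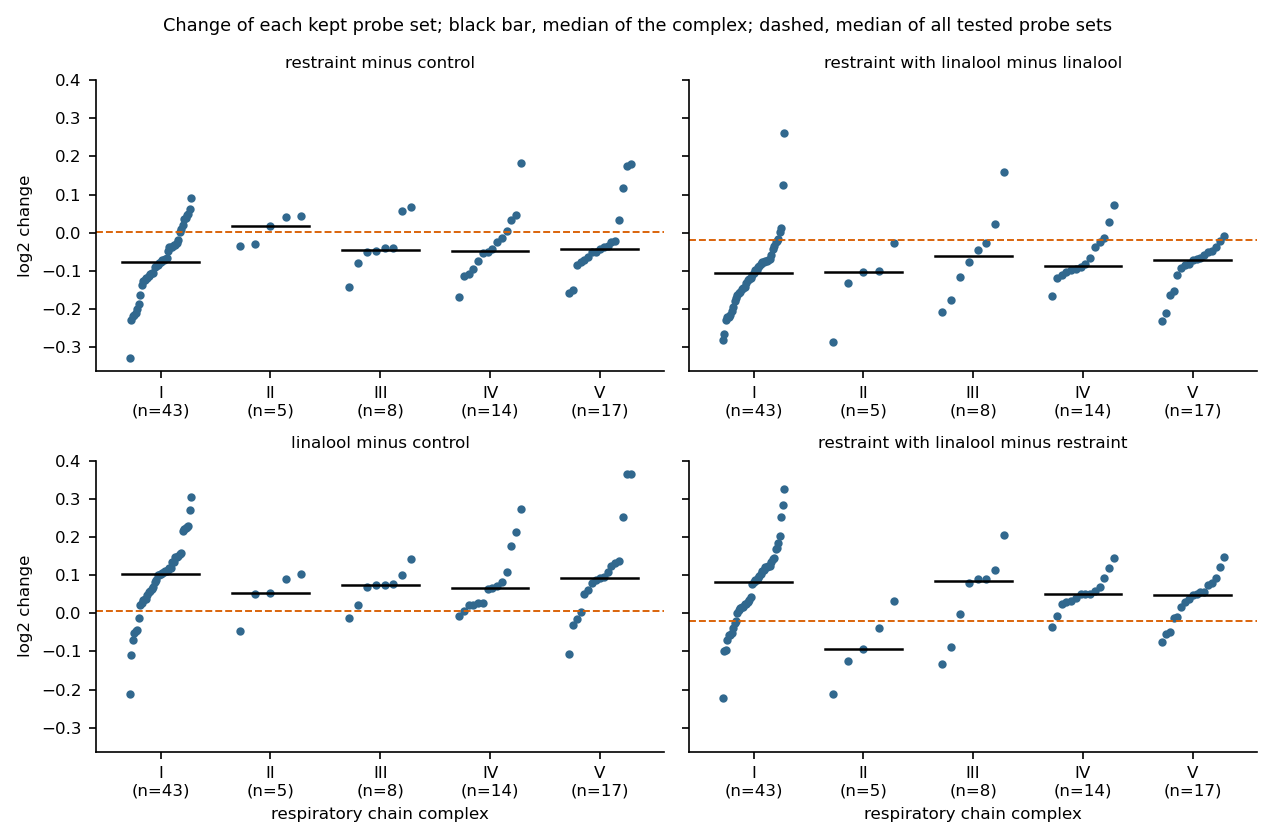
Log2 change of each tested probe set (points, sorted within a complex) in the 4 comparisons between groups, after quantile normalization, with the median of the complex (bar) and the median of all 18625 probe sets (dashed line). In restraint with linalool minus restraint the median of complex II lies at -0.09 and those of the other complexes between 0.05 and 0.09; with signals as deposited the medians of complexes I, III, IV and V turn sign in the other 3 comparisons.

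The upstream sequences of these genes are known for sites of a few shared factors, among them NRF1, GABPA (also called NRF2) and YY1, which are textbook regulators of nuclear genes for mitochondria. RefSeq promoter sequences (build GRCr8, 250 bases before to 50 after the start) were held for 78 of the 86 genes, and for 27457 genes in all. The letters GCGCANGCG (NRF1) were in 24.4% of the members' promoters against 6.26% of all, CCGGAAG (GABPA) in 28.2% against 9.22%, AAGATGGCG (YY1) in 14.1% against 1.93%, TCAAGGTCA (ERRA) in 2.56% against 0.412% and GGGCGG (SP1) in 43.6% against 34.9%. Both strands were searched, and matches of different motifs may share bases. In all, 43 of the 78 held at least 1 match for NRF1, GABPA or YY1. The shares differed by complex. NRF1 matches were in 10 of 38 genes of complex I, 1 of 4 of complex II and 1 of 6 of complex III. For complexes IV and V they were in 1 of 15 and 6 of 15. In the order I to V, GABPA had 9 of 38, 2 of 4, 3 of 6, 3 of 15 and 5 of 15. YY1 had 8 of 38, 0 of 4, 1 of 6, 0 of 15 and 2 of 15. The promoters of 4 genes that the results turn on are shown with all matches to the 5 motifs in capitals. Ndufv2 is the called gene, and Ndufv3, Sdhc and Ndufb10 had the members' smallest p-values in the 4 comparisons between groups. A match is a description of the letters only.
Ndufv2 (chr9:113157471-113157770, minus strand): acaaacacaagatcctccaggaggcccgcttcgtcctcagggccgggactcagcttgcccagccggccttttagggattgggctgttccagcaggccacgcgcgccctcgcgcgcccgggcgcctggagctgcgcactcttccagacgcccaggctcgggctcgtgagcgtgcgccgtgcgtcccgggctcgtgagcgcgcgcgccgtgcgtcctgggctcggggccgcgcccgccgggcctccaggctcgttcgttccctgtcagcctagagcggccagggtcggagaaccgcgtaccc
Ndufv3 (chr20:9613536-9613835, plus strand): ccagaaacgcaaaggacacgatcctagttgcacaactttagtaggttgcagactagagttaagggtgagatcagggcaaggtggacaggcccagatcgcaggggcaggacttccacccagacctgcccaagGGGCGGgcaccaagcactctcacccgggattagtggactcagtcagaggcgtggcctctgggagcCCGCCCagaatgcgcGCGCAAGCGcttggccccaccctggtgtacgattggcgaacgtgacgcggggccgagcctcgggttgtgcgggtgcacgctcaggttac
Sdhc (chr13:86097976-86098275, minus strand): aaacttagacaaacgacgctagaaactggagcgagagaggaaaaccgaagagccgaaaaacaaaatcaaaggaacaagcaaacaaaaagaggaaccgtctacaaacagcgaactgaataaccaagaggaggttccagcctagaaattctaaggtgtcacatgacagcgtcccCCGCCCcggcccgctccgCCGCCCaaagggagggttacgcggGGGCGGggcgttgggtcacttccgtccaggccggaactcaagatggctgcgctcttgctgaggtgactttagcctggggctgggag
Ndufb10 (chr10:14255917-14256216, minus strand): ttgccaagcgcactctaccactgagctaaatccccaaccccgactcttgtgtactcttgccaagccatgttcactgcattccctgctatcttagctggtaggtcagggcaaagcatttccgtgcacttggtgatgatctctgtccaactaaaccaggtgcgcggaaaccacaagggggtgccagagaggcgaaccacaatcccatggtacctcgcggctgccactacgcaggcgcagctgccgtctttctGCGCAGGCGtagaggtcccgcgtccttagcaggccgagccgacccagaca
In these windows Ndufv2 had no match, Ndufv3 had 1 NRF1 and 2 SP1 matches, Sdhc had 3 SP1 matches and Ndufb10 had 1 NRF1 match.

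Rats of the same group also differed, and the members varied together across them. After subtracting each group's mean, a member's residuals over the 16 arrays correlated with the median residual of the other members at a median r of 0.40, from -0.33 (Cox8a) to 0.78 (Ndufa2). Of the 87, 30 had r over 0.5 and 8 were negative. For 13841 tested probe sets of other genes the median r was 0.01. In complex I 0 of 43 were negative and the median was 0.45, while complex II had a median of 0.12 and 2 of 5 negative. These points share arrays and array-wide shifts, and they are given as a description. The other genes most like the members over the 16 arrays were Mycn (r = 0.91), Dnajc30 (0.89), Katnip (0.87), Ss18l2 (0.87) and Acyp1 (0.84). They are the highest of the 13841 correlations searched, which ran from -0.89 to 0.91. Whether they vary with the members beyond such a search was not tested.

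Related gene lists gave a reference for these values. Of 48 tested genes for assembly and regulation of the chain, 0 were called in any of the 7 comparisons, where 0% to 4.21% of all probe sets were called. Their median was -0.03 for the average restraint effect and 0.02 for the average linalool effect. Of 23 genes that stand for mitochondrial mass, 2 were called higher for the average restraint effect, against 4.21% of all probe sets called in either direction. They were the mitochondrial chaperone genes Hspd1 (0.37, SE 0.08, limma adjusted p = 0.011) and Hspe1 (0.30, SE 0.07, adjusted p = 0.0316), and the list median was -0.04. Of 24 genes of the citric acid cycle and pyruvate use, 1 was called, Pdk4, whose kinase holds back pyruvate dehydrogenase. Pdk4 rose with restraint by 2.01 without odour (SE 0.17, adjusted p = 2.17e-05) and by 1.93 with it (SE 0.17, adjusted p = 2.77e-05). Of all probe sets 0.902% and 1.69% were called in these 2 comparisons. Of 17 glycolysis genes, 1 was called for the average restraint effect, the glucose transporter gene Slc2a1 (0.31, SE 0.08, adjusted p = 0.0392), again against 4.21% of all probe sets. Whether the share called in any list differs from that of all probe sets was not tested. In linalool minus control 0 members of the 4 lists were called, against 0% of all probe sets. The list medians lay between -0.01 and 0.01 there, beside 0.08 for the 87 probe sets.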

How the data were processed

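One array per rat was read. The deposited values are intensity signals that the authors made with MAS5, per the submitters' processing notes; the version and scaling target are not given in the sources used here. Replicates were not pooled. The planned test assumed arrays at a common level, but the deposited levels differed, so all 31099 rows, controls included, were quantile normalized, 16 was added, and log2 was taken. The 57 control probe sets were then left out, and probe sets with a mean log2 level at or above the 40th percentile were kept (18625 of 31042). Of these 31042 probe sets, 20826 had 1 symbol in the platform annotation, 436 several and 9780 none.

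A group-means model (12 residual and 3.97 prior degrees of freedom) was fitted with limma 3.58.1 in R 4.3.3 and gave 7 comparisons, each adjusted by Benjamini-Hochberg over 18625 probe sets. The fit was tested on simulated data. Members and lists were chosen with earlier results of these data known. The text names called members, the 3 with the largest positive and the 3 with the largest negative change in each comparison, the tightest and most variable member of each complex, the Sdh genes, called genes of the other lists, and any others with the reason given. Rats with the same number did not deviate together (correlation of residuals -0.16 to 0.23 over 24 pairs), so they were not paired. The p-values rest on differences among animals within groups, pooled over the 4 groups and moderated by limma, and 4 arrays per group limit the precision. Promoters were RefSeq's, on GRCr8. Alternatives were other scalings, pseudocounts, filters, blocks for replicate number and BioC, a covariate for the 3'/5' ratio of beta-actin, and leaving out rats. Scaling to the same median multiplies each array by a constant, which largely cancels relative to the median of all probe sets. Relative to that median it is no separate check from the signals as deposited.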

Additional observations from a re-analysis of the deposited data

Results flagged for a closer look

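In 5 groups of 4 rats, 1 rat stood far from the other 3 for a probe set named above, by the gap to the nearest rat divided by the group's range. Chance gives such a gap in about 1 in 20 groups, and 116 groups were screened, so the 5 are no more than chance would give. Ndufv3 (1368566_a_at) read 9.51 in restrained rat 4 and 9.23 to 9.27 in the other restrained rats. Ndufv2 read 11.36 in linalool rat 2 and 11.47 to 11.49 in the others. Ndufaf5 read 8.27 in control rat 2 and 8.51 to 8.54 in the others. For Uqcrc2, the dimmer probe set (1382280_at) read 10.22 in restrained rat 4 with linalool against 9.49 to 9.53, and the brighter one (1373362_at) read 11.83 in linalool rat 3 against 11.66 to 11.67. Outside the members, the BioC spike-in read 927 in linalool rat 2, 884 in linalool rat 4 and 1014 in restrained rat 2 with linalool, against 201 to 246 in controls.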

How the results depend on the processing

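The 87 probe sets were refitted under 27 alternatives, of which 16 left out 1 rat. With values as deposited the median change turned to 0.037 for restraint minus control, 0.21 for restraint with linalool minus linalool, -0.049 for linalool minus control, 0.13 for the average restraint effect and 0.18 for the interaction, and became 0.13 for restraint with linalool minus restraint. With arrays scaled to the same median it was -0.19 for restraint with linalool minus linalool, 0.12 for linalool minus control, -0.13 for the average restraint effect and -0.10 for the interaction. The Ndufv2 call, the 1 member called in the average restraint effect, was lost (0 members called) with values as deposited, without a filter on dim probe sets, with the replicate number as a block (adjusted p = 0.0669), with the 13 low-BioC arrays only and without control rats 1 and 2; a BioC block gave 2 (Ndufv2 and Ndufs7), and leaving out 1 rat gave 0 to 3. For restraint with linalool minus linalool 1 was called at the 60th percentile filter and with a BioC block (Sdhc), and with a covariate for the log2 3'/5' ratio of beta-actin (Ndufs3). For the average linalool effect 1, Ndufb10, was called with a pseudocount of 64, the 60th percentile filter and the same covariate. The replicate block changed no other call of members. Leaving out 1 rat gave medians of -0.07 to -0.04 for restraint minus control, -0.11 to -0.08 for restraint with linalool minus linalool, 0.06 to 0.11 for linalool minus control, 0.03 to 0.07 for restraint with linalool minus restraint, -0.09 to -0.06 and 0.06 to 0.08 for the average restraint and linalool effects, and -0.05 to -0.01 for the interaction. Single members turned sign as follows. For restraint with linalool minus linalool as deposited, Sdhc was 0.028, Ndufs3 0.062 and Ndufv3 (1368567_at) 0.084, and Uqcrc2 (1382280_at) ran from -0.016 (without restrained rat 4 with linalool) to 0.27 on leaving out 1 rat. For the average restraint effect, Ndufv3 (1368567_at) was 0.019 as deposited, Uqcrc2 (1382280_at) -0.13 without control rats 1 and 2, and Atp5if1 (1371229_at) ran from -0.0082 (without restrained rat 4) to 0.16 on leaving out 1 rat. The interaction of Ndufs4 was -0.0037 without control rats 1 and 2. The cause was not tested in any of these.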
